A study of Mus musculus with 8 samples.

Results

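The 7 miRs described here were mmu-miR-3096-5p, mmu-miR-468-3p, mmu-miR-5115, mmu-miR-3470a, mmu-miR-5099, mmu-miR-5118 and mmu-miR-3963, of 1079 murine miRs on the array. They were found by their names in the scanner files. They were selected on the values of these same arrays, for a strong difference between the groups or for an extreme signal, so that their group differences are given as a description with no test. The working label calls them doubtful miRs with a strong callus signal. No value of the arrays bears on whether a miR is doubtful, and a strong signal was seen for miR-3963 only. The merged signals of the other 6 lay between 4.60 and 353 units where they were detected, while the median over all detected murine miRs was between 47.5 and 57.9 units per array.

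Callus was taken from CD-1 mice 7 days after a femoral osteotomy that was stabilized with a pin and a clip, and each of the 8 arrays held the RNA of 1 mouse. The Union group (P17 to P20) had a gap of 0.25 mm, and the Nonunion group (P13 to P16) had a gap of 1.8 mm together with stripping of the periosteum beside it, so that the gap and the stripping cannot be told apart. Mice of both sexes were used, the methods give a single age range for all of them, and no sex or age is given for a single mouse. No gene was altered in either group, and the outcome cannot be seen as early as day 7, so that the group names stand for the outcome known for each gap size.

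MiRs are short RNAs that are cut by Drosha and Dicer from a hairpin-shaped precursor and loaded into an Argonaute protein. The bases that follow the first base of the mature miR, called the seed, pair with messenger RNAs and lower their translation or stability. MiRs are numbered in the order in which they entered the database, and a number says nothing about function. Entries with high numbers mostly came from deep sequencing of small RNAs, where fragments of repeats and of other non-coding RNAs are sequenced as well. For the 7 miRs no established role in bone is taken as known here.

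The sequences show what kind of precursor each entry rests on, and they come from the RefSeq table of GRCm38.p6, matched by symbol. That table gave a hairpin for 4 members and a mature sequence for 2. MiR-3096-5p, miR-5115 and miR-3470a are named only. Both mature miRs have 19 bases and are shown first, with the seed (bases 2 to 8) in capitals. MiR-3963 lies at chr3:151023839-151023857 on the minus strand and miR-5118 at chr16:55494770-55494788 on the plus strand.
miR-3963: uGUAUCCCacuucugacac
miR-5118: aAGGUUAGgccagccuggu
The seeds differ, and of the 1738 mature sequences of the table no other one carries either seed.

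The 4 hairpins are shown because they differ in how far they resemble a usual precursor. Capitals mark the mature miR in Mir3963 and Mir5118, a pair of stretches that each occur 2 times in Mir468, and a stretch in Mir5099 that is also found, on the opposite strand, in the Mir1958 hairpin.
Mir3963, chr3:151023792-151023862, minus strand: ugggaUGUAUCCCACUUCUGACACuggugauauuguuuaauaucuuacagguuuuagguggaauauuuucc
Mir5118, chr16:55494731-55494797, plus strand: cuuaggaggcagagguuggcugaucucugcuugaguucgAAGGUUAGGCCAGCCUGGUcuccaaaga
Mir468, chr6:81896599-81896676, minus strand: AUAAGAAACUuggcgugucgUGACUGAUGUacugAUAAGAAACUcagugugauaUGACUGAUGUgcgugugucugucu
Mir5099, chr12:36816205-36816278, plus strand: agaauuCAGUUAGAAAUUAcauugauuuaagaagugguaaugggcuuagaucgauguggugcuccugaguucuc
The Mir468 hairpin had a folding energy of -0.19 kcal/mol per base by RNAfold, against a median of -0.41 over the 1005 hairpins of the table. Only 4 hairpins of the table, or 0.398%, folded as weakly, Mir468 included. Its predicted fold paired 56.4% of the bases, against a median of 69.0%. Mir3963 (-0.32), Mir5099 (-0.36) and Mir5118 (-0.45 kcal/mol per base) lay within the bulk of the table, where 16.4%, 30.9% and 69.2% of the hairpins folded as weakly. In Mir468 both repeated stretches have 10 bases, and they alternate along the hairpin.

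Mir5118 shares letters with a further entry of the same numbering family as a member, and the pair is shown for that reason. The mature miR-3470b (chr16:44013885-44013905, plus strand) carries a stretch of 12 bases, in capitals, whose reverse complement stands in the Mir5118 hairpin.
miR-3470b: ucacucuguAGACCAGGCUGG
Mir5118: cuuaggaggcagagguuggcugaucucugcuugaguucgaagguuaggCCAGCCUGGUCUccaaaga
Most of this stretch of Mir5118 belongs to the mature miR-5118 shown above. As background, these letters are those of B1, the abundant short interspersed repeat of the mouse genome. The Mir1191 hairpin shares a stretch of 12 bases with Mir5118 as well. The letters CCAGCCTGGTCT, on either strand, were found in 58 of 32851 promoter windows, which run from 250 bases before to 50 bases after each gene start, or 0.177%, and the 19 bases of miR-5118 in none. Mir5118 lies inside the long non-coding RNA gene Gm45968, while no other gene of the RefSeq table overlapped Mir3963, Mir468 or Mir5099. MiR-1958 and miR-1191, the entries that share letters with Mir5099 and Mir5118, were on the array and were detected on none of the 8 arrays.

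For the values below, the merged signals, which the scanner software formed over the 40 spots of each miR, were taken as log2 and then quantile normalized with all murine miRs. Differences are Nonunion minus Union. The summed merged signal was between 183589 and 279341 units on the Nonunion arrays and between 227941 and 360063 units on the Union arrays, with P16 the lowest and P17 the highest. The number of detected murine miRs was 324 to 366 and 361 to 391. Negative control spots had a net signal of 51.2 to 55.0 units on the Nonunion arrays and of 46.9 to 47.9 units on the Union arrays. The groups stood in different rows of the slide, so that row and group cannot be told apart. P14 and P19 had been set apart in earlier results of these data as lying near the other group, and differences without both are therefore given as well. Leaving out arrays chosen in this way tends to widen a group difference by itself, so that nothing is read from these values.
Among the tissue lists, the 4 arms of miR-140 and miR-455, which mark cartilage, were detected on every array, with summed signals of 934 to 3521 units in the Nonunion group and of 484 to 996 units in the Union group. The miR-223 and miR-142 arms, which stand for myeloid cells and leukocytes, summed to 3534 to 4985 units against 5376 to 20398 units before normalization. Of the 4, 3 were detected on every array and miR-223-5p on none. Muscle miRs (miR-206-3p, miR-1a-3p, miR-499-5p, miR-208b-3p and the miR-133a-3p and miR-133b-3p pair) summed to 14855 to 62359 units against 36945 to 95817 units, with 4 of 6 detected on every array. Red blood cell miRs (miR-451 and the miR-144 arms) summed to 2960 to 9469 units against 3050 to 16676 units, and all 3 were detected on every array. MiR-486-5p, the remaining miR of that list, was not found by this name on the array and is not in the sum. The part of these cells in the results was not tested. In callus RNA, fewer cells of a type and less of a miR per cell cannot be told apart.

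Of the 7 members, 5 were detected on all 8 arrays and belonged to the 310 murine miRs compared there. MiR-5099 and miR-5118 were not detected on P16. Among the 5, 4 had a lower mean in the Nonunion group, 2 of them by a fold change (FC) of 2 or more, and the same 4 had groups that did not overlap. Over all 310 miRs, 1.29% were lower by an FC of 2 or more and 2.58% were lower without overlap of the groups. Nothing is read from this contrast, since it chose the members. The median difference was -0.95 for the 5 members and 0.15 for the 310 miRs, of which 126 were lower and 184 higher. Around the FC of 2, miR-483-5p (-1.03) and miR-223-3p (-1.13) lay just inside, and miR-134-5p (-0.97) and the member miR-468-3p (-0.95) just outside.

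**Figure D1:**
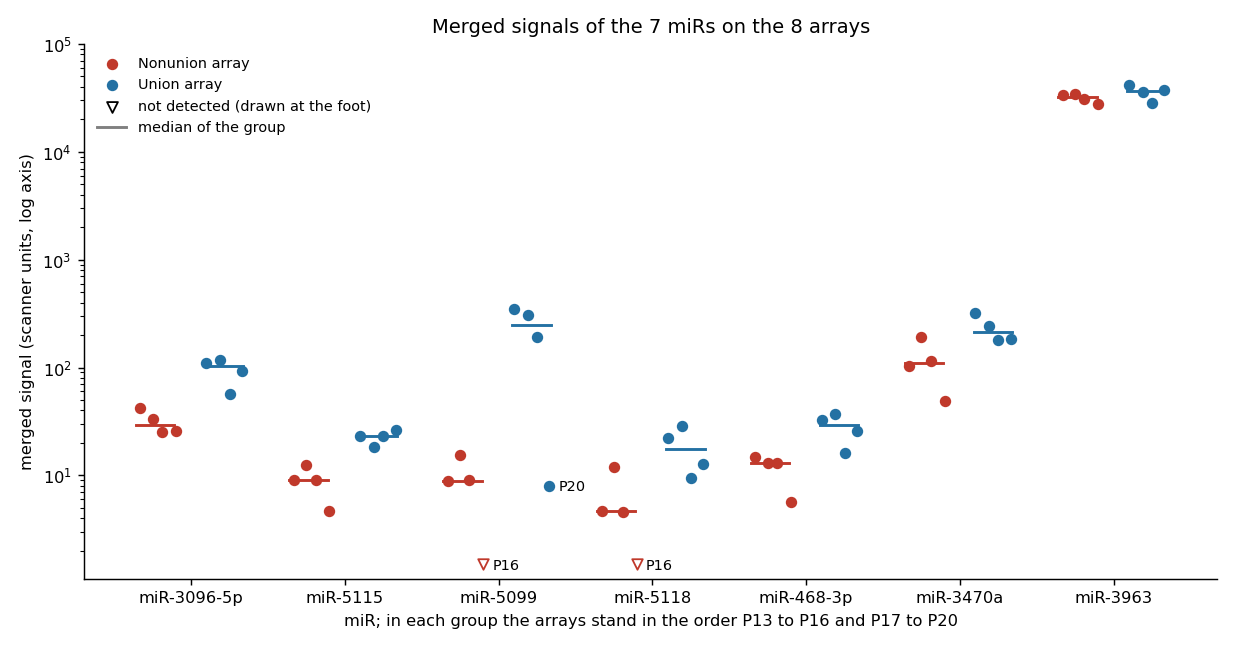
The merged signal in scanner units on a log axis is plotted for the 7 miRs, with a point for each of the 4 Nonunion and 4 Union arrays and a line at the median of the group. MiR-3963 stands at about the same height on all arrays, miR-5099 is near 8 units on P20 but at 191 units or more on the other Union arrays, and open triangles mark P16, where miR-5099 and miR-5118 were not detected.

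MiR-3096-5p had the widest gap between its groups among the members. Its merged signal was 41.9, 33.2, 25.3 and 26.03 units on P13 to P16. It was 111, 119, 57.2 and 93.5 units on P17 to P20. The groups did not overlap, and P19 was the lowest Union array. The normalized log2 signal averaged 5.06 ± 0.20 (SD, n = 4) over the Nonunion arrays and 6.43 ± 0.33 (SD, n = 4) over the Union arrays, a difference of -1.37 or an FC of 2.58. On the log2 scale the gap between the highest Nonunion and the lowest Union array was 0.66.
Both probes of miR-3096-5p, with 20 spots each, gave separate groups. The first probe ranged from 15.7 to 25.1 units on the Nonunion arrays and from 34.2 to 69.2 units on the Union arrays. The second probe ranged from 9.64 to 16.8 units and from 23.0 to 49.3 units. At least 38 of the 40 spots were well above background on every array, so that the low arrays were also measured. Scaled to the 75th percentile of each array, the difference was -1.34 for the merged signal and -1.28 and -1.43 for the single probes. After quantile normalization it was -1.49 without P14 and P19. By quantitative real-time PCR (qrt-PCR) the paper reports no significant group difference for this miR.

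MiR-468-3p, the entry with the weakly folding hairpin, had 14.9, 12.96, 12.9 and 5.61 units on P13 to P16. On P17 to P20 it had 32.6, 37.0, 16.2 and 26.1 units. The groups did not overlap, but P19, at 16.2 units, lay close to P13. The normalized log2 signal averaged 3.65 ± 0.17 (SD, n = 4) over the Nonunion arrays and 4.60 ± 0.43 (SD, n = 4) over the Union arrays, and the difference of -0.95 corresponds to an FC of 1.94.
This miR was read by 4 probes of 10 spots each. The groups did not overlap for 3 of them, and for the remaining one they did, with 4.31 units on P13 and 3.93 units on P19. On P16 the merged signal held only 2 of the 4 probes, and 4 of the 40 spots there were well above background, against 40 on P17, P18 and P20. Without P14 and P19 the difference was -1.16.

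MiR-5115 had 9.05, 12.4, 9.06 and 4.71 units on P13 to P16. It had 23.0, 18.5, 23.4 and 26.6 units on P17 to P20. All Nonunion arrays lay below all Union arrays, and P16 was again the lowest. The normalized signal was 3.22 ± 0.18 (SD, n = 4) against 4.38 ± 0.37 (SD, n = 4), a difference of -1.16 or an FC of 2.24.
The merged signal of miR-5115 did not rest on the same probes in both groups. On all 4 Nonunion arrays it equalled the first probe alone, and on all 4 Union arrays it equalled the sum of both probes. Of the 310 miRs compared, miR-5115 was the only one whose merged signal held fewer probes on every Nonunion array than on any Union array, and for none was it the other way round. In 219 of the 310 miRs all probes were counted on every array. With both probes summed on all arrays, miR-5115 had 11.96, 16.8, 11.9 and 6.06 units in the Nonunion group and 23.0, 18.5, 23.4 and 26.6 units in the Union group. The groups still did not overlap, and the difference became -0.82 with scaling to the 75th percentile, under an FC of 2. The first probe alone ranged from 4.71 to 12.4 units and from 12.7 to 19.3 units, a difference of -0.74 on the same scale. No spot was well above background on P16, and the difference of the merged signal was -1.18 without P14 and P19.

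MiR-3470a, which shares its number with miR-3470b, was the brightest of the members that were lower in the Nonunion group and were detected on every array. It had 104, 193, 114 and 48.8 units on P13 to P16 and 323, 242, 179 and 185 units on P17 to P20. In merged signal P14 lay above P19 and P20, so that the groups overlapped. After normalization they did not, by 0.13 on the log2 scale. The mean normalized log2 signal was 6.80 ± 0.59 (SD, n = 4) over the Nonunion arrays and 7.73 ± 0.23 (SD, n = 4) over the Union arrays, a difference of -0.93 or an FC of 1.91.
All 40 spots of miR-3470a were well above background on every array. Both probes overlapped between the groups before normalization, as P14 read 105 and 88.2 units and P19 read 98.2 and 80.5 units. The difference was -0.67 without P16 and -1.19 without P14 and P19.

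**Figure D2:**
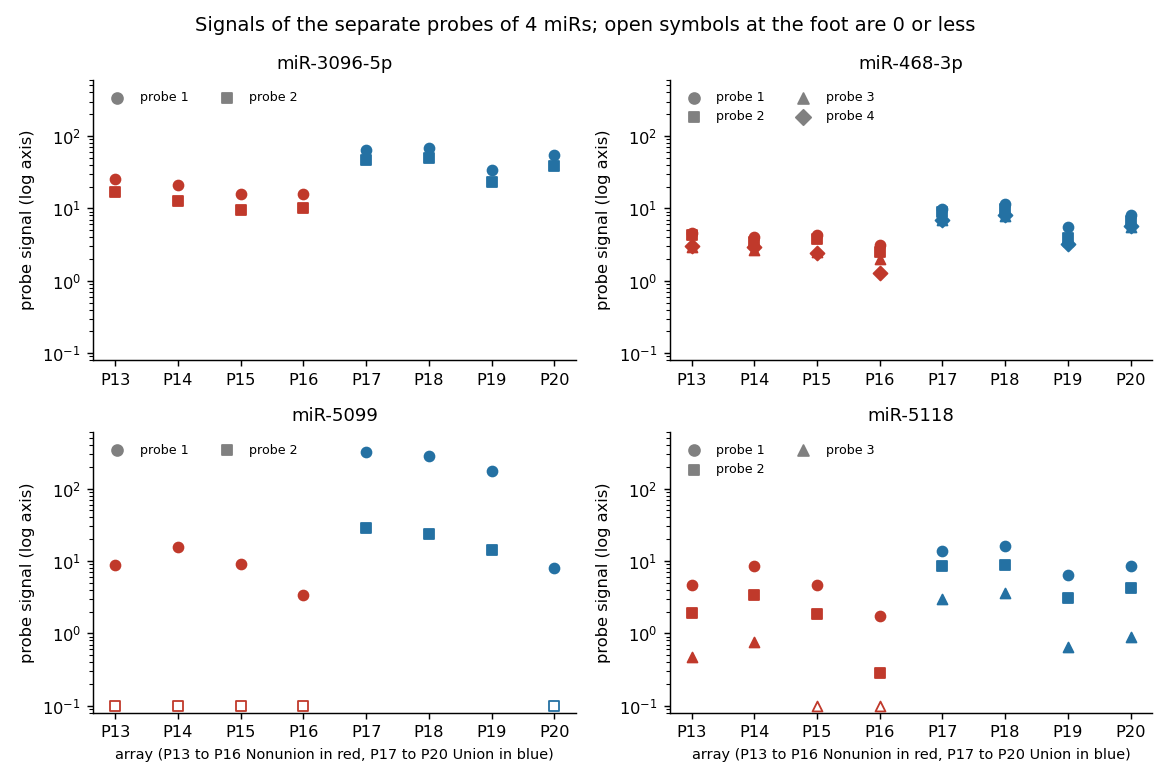
The signal of each probe, in scanner units on a log axis, is plotted for 4 of the miRs on each array, with Nonunion arrays in red and Union arrays in blue. The probes of miR-3096-5p and of miR-468-3p move together over the arrays, the second probe of miR-5099 has a signal above 0 on P17, P18 and P19 only, and the third probe of miR-5118 is 0 or less on P15 and P16.

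In miR-5099 the Union arrays themselves lay far apart. The signal of 8.82, 15.4 and 9.01 units on the first 3 Nonunion arrays was followed by no detection on P16. On P17, P18 and P19 the signal was 353, 306 and 191 units, whereas P20 had 8.06 units. In merged signal P20 therefore lay below all Nonunion arrays on which miR-5099 was detected. On the normalized log2 scale P20 lay above P13, at 3.17 against 3.10. Over the arrays that detected miR-5099, the highest merged signal was 43.8 times the lowest. None of the 310 miRs reached such a range, the median of which was 2.57.
The low value of P20 was not shared by other miRs to this degree. Of the 335 murine miRs detected on all Union arrays, P20 was the lowest Union array in 91. In miR-5099 it lay 4.57 below the next Union array on the log2 scale of the merged signal, and the next largest such gap was 1.25, in miR-145-5p. The median gap of the 91 miRs was 0.37.
Both probes of miR-5099 gave this pattern. The first probe read 324, 282 and 177 units on P17, P18 and P19 and 8.06 units on P20. The second probe read 29.0, 23.2 and 14.3 units on P17, P18 and P19 and -0.76 units on P20, where none of its 20 spots was well above background. On the Nonunion arrays the second probe lay between -1.08 and -0.17 units, and the merged signal held the first probe alone on P13, P14 and P15. On P16, where miR-5099 was not detected, it held neither probe.
The difference of miR-5099 was -5.07 after normalization. This value rests on P16, which entered at the floor of 0.1 units, and it was -3.36 without P16. Without P20 it was -6.26, since the lowest Union array was then left out. Without P14 and P19 it was -5.47, with both P16 and P20 still included. For miR-5099, too, the paper reports no significant group difference by qrt-PCR.

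MiR-5118, the member with the letters of a repeat, was the dimmest. It had 4.72, 11.98 and 4.60 units on the first 3 Nonunion arrays, was not detected on P16, and had 22.3, 28.5, 9.43 and 12.8 units on P17 to P20. P14 lay above P19, so that the groups overlapped. The difference was -3.05 with P16 at the floor and -1.22 without P16.
MiR-5118 had 3 probes of 13, 13 and 14 spots. The third probe had no spot well above background on any array. The merged signal held 1 or 2 probes on the Nonunion arrays that detected it and 2 or 3 on the Union arrays. Scaled to the 75th percentile of each array, with signals under 1 set to 1, the difference was -1.08, -1.36 and -0.62 for the single probes and -1.54 with all probes summed. After quantile normalization it was -4.21 without P14 and P19, where P16 was 1 of the 3 Nonunion arrays.

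MiR-3963 had a high signal on every array and no group difference beyond the spread between arrays. It had 33960, 34188, 30904 and 27631 units on P13 to P16 and 41777, 36072, 28221 and 37421 units on P17 to P20. The groups overlapped, as P19 lay below P13, P14 and P15. It was the brightest murine miR on 7 arrays and the second on P17, and it held between 11.6% and 15.1% of the summed signal of all murine miRs. The signal of a miR also depends on its probes, so that this order is one of signals and not of amounts.
None of the 40 spots of miR-3963 was saturated on any array. Both of its probes were bright, with 20889 to 30772 units for the first and 6741 to 11005 units for the second. Its highest signal was 1.51 times its lowest, and 87.4% of the 310 miRs, itself included, had a range at least as wide.
Quantile normalization gives the brightest miR of every array the same value. MiR-3963 was thus set to 15.05 on 7 arrays and to 14.70 on P17, and the normalized difference of 0.09 reflects P17 alone. Without normalization the difference was -0.17, the opposite direction. As a share of the summed signal the mean of the Nonunion arrays was 13.4% ± 1.18 (SD, n = 4) and that of the Union arrays 12.6% ± 1.04 (SD, n = 4), which differ by less than 1 SD.

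**Figure D3:**
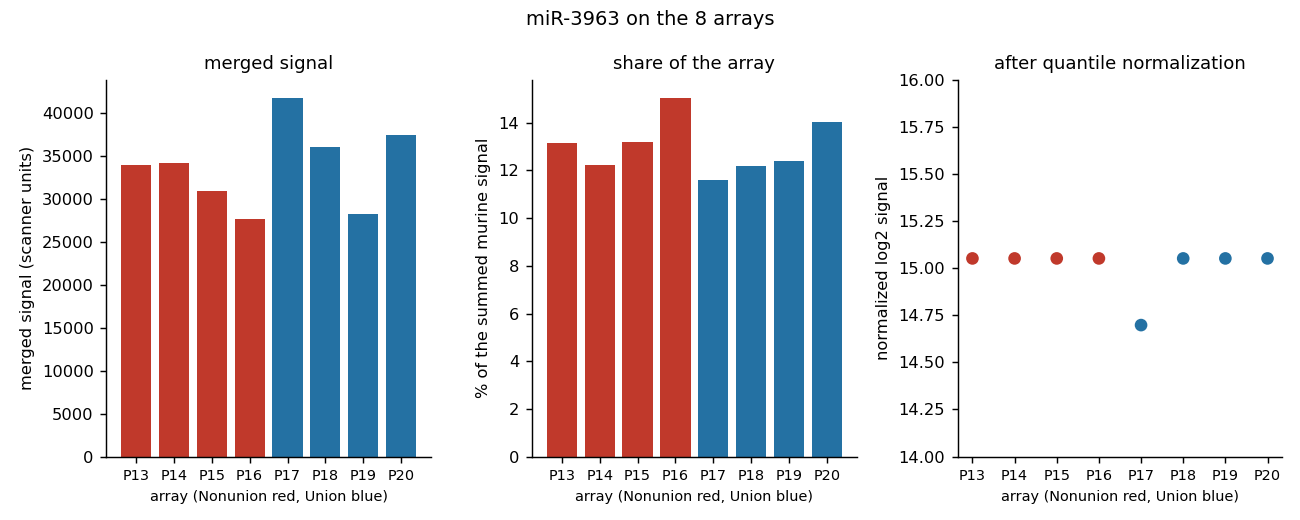
MiR-3963 is plotted on each array as its merged signal in scanner units, as its percentage of the summed murine signal and as its normalized log2 signal, with Nonunion arrays in red and Union arrays in blue. The bars of both groups overlap in the first and second panel, and the normalized value is 15.05 on all arrays except P17; the axis of the third panel does not start at 0.

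The members varied together over the arrays in part only. P16 had the lowest merged signal in 6 of the 7 members, and P17 or P18 the highest in 6 of the 7. The same was true of 47.7% and of 41.9% of the 310 miRs, and P16 and P17 were also the arrays with the lowest and the highest summed signal. MiR-3096-5p and miR-468-3p had a Pearson r of 0.94 over the 8 arrays, and of 0.78 for their deviations from the group means. For the other pairs of these with each other or with miR-5115 and miR-3470a, r was between 0.71 and 0.83 over the arrays but between -0.29 and 0.25 for the deviations. These are descriptions over the 8 arrays of a single slide. Within the groups, the pooled SD was 0.27 for miR-3096-5p, 0.29 for miR-5115, 0.33 for miR-468-3p and 0.45 for miR-3470a, against a median of 0.44 for the 310 miRs. It was 0.13 for miR-3963, and 2.94 for miR-5099 and 2.08 for miR-5118, both with P16 at the floor. The members were chosen on these same values, so that nothing is read from these SDs.

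Pearson r over both groups together holds the group difference as well as the spread within the groups. The share of the group difference in it was not tested. By this r, the miRs whose normalized signals were most like those of a member over the 8 arrays were named. For miR-3096-5p they were miR-511-3p (r = 0.98), a miR of macrophages that lies in an intron of the mannose receptor gene Mrc1, miR-669n (0.96) and miR-10b-5p (0.86) of the Hoxd cluster. For miR-468-3p they were miR-669n (0.97), miR-511-3p (0.95) and miR-1196-5p (0.93). For miR-5115 they were miR-126-3p (0.88), a miR of endothelial cells, miR-669n (0.87) and miR-5107 (0.87). For miR-3470a they were miR-3102-5p.2-5p (0.93), miR-10b-5p (0.89) and miR-1906 (0.89). MiR-669n, miR-511-3p and miR-10b-5p, together with miR-223-3p, were also the other 4 of the 8 miRs that were lower in the Nonunion group without overlap, with differences of -0.64, -0.59, -0.42 and -1.13. In signals without normalization, 2 of the 3 named miRs were again among the first 3 for miR-3096-5p and for miR-468-3p, 1 for miR-5115 and 0 for miR-3470a, which was then most like miR-5130 (0.96), miR-30e-3p (0.96) and miR-5107 (0.96).
MiR-3963 was nearly constant after normalization, and its likeness to miR-467b-5p (0.91), miR-467e-5p (0.89) and miR-224-5p (0.74) there rests on P17. In signals without normalization, a scale taken up after its values were seen, it was most like miR-5100 (0.98), miR-101b-3p (0.93) and miR-712-5p (0.92).

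Entries with numbers near those of the members were given by lists, to see whether other miRs of the same kind of entry moved. In the fit across all 310 miRs, 13.9% had an unadjusted limma p under 0.05 in either direction. The array held 2 further miRs with the number of a member, miR-3096b-3p and miR-3096b-5p, both detected on every array. MiR-3096b-3p had 266 to 310 units in the Nonunion group and 230 to 303 units in the Union group, a difference of 0.34 (SE 0.23, limma adjusted p = 0.387). MiR-3096b-5p had 11.7 to 22.3 units and 11.6 to 29.5 units, a difference of -0.21. Neither passed the threshold, and the groups of both overlapped, unlike those of miR-3096-5p.
Of 37 further miRs with names from miR-5097 to miR-5136, 14 were detected on every array and 20 on none. Of the 14, 10 were lower and 4 higher in the Nonunion group, with a median difference of -0.36 against 0.15 for the 310 miRs. An unadjusted p under 0.05 was reached by 2 of the 14, both lower. MiR-5107 had 24.1 to 52.5 units in the Nonunion group and 46.7 to 73.8 units in the Union group, a difference of -0.51 (SE 0.20, limma adjusted p = 0.322). MiR-5130 had 4.98 to 26.98 units and 14.42 to 40.6 units, a difference of -0.89 (SE 0.38, limma adjusted p = 0.346). The groups of all 14 overlapped, and none passed after adjustment. Without normalization, 12 of the 14 were lower, as were 185 of the 310 miRs, whose median difference was then -0.10. After normalization, miR-5100 (0.23), miR-5097 (0.21) and miR-5109 (0.11) lay above 0, while miR-5126 (-0.26), miR-5105 (-0.64) and miR-5128 (-0.87) lay below 0.
The other lower ones were miR-5119 (-0.75), miR-5121 (-0.74), miR-5112 (-0.43), miR-5131 (-0.29) and miR-5103 (-0.16), and miR-5117-5p was higher (0.44). MiR-5113 had a pattern like that of miR-5118, with no detection on 1 Nonunion array and up to 12.9 units on the others, against 9.41 to 30.4 units in the Union group. MiR-5122 and miR-5132 were detected on 2 Union arrays each, at up to 11.8 and 5.44 units.
Of 11 further miRs with names from miR-3960 to miR-3971, 2 were detected on every array and 9 on none. MiR-3960, known from osteoblasts, where it shares a cluster with miR-2861, had 2054 to 5663 units in the Nonunion group and 1976 to 15475 units in the Union group, a difference of -0.43. MiR-3968 had 3379 to 4402 units and 3169 to 5718 units, a difference of 0.15. Neither passed the threshold.

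**Figure D4:**
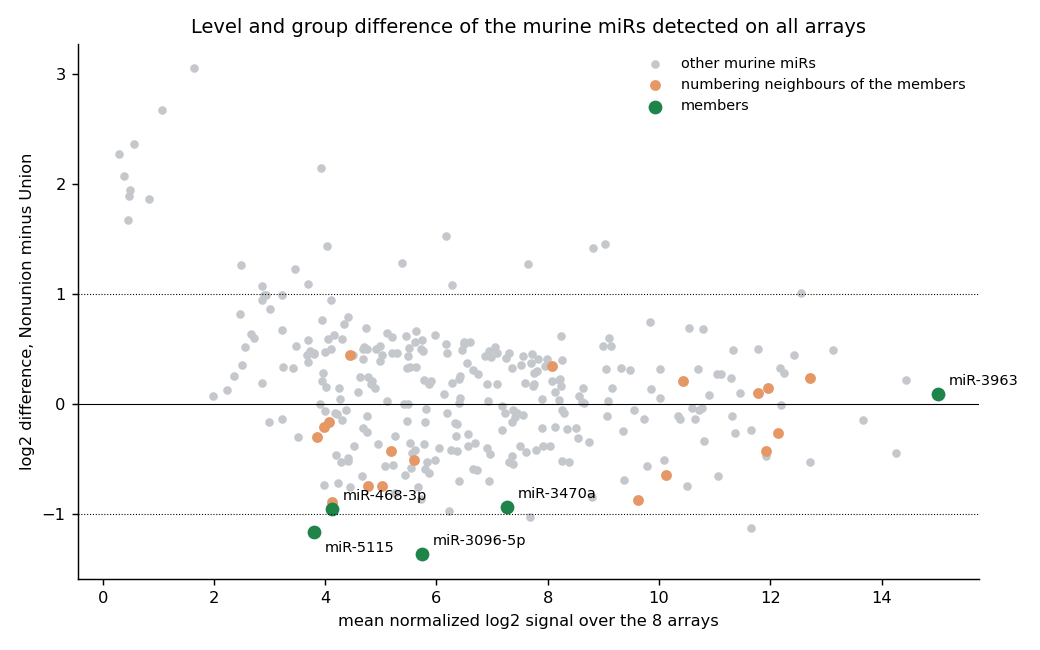
The log2 difference, Nonunion minus Union, is plotted against the mean normalized log2 signal over the 8 arrays for the 310 miRs detected on all arrays, with the 5 members among them in green, their numbering neighbours in orange and dotted lines at an FC of 2. MiR-3096-5p and miR-5115 lie below the lower line, miR-468-3p and miR-3470a just above it and miR-3963 at the right near 0; the members were chosen on these values.

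With a normexp background correction and an offset of 50, changed together, the differences were smaller. The difference was -0.70 for miR-3096-5p, -0.25 for miR-468-3p, -0.20 for miR-5115 and -0.69 for miR-3470a. It was -1.42 for miR-5099 and -0.22 for miR-5118. In the value table of the authors these 6 differences were -1.22, -0.74, -0.84, -0.89, -3.14 and -0.92. All 6 miRs were lower in the Nonunion group in both, which is no separate support, since they were chosen on these same arrays. An FC of 2 or more was reached by 1 of them with normexp and by 2 in the table, and the share over all miRs was not taken there.

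**Figure D5:**
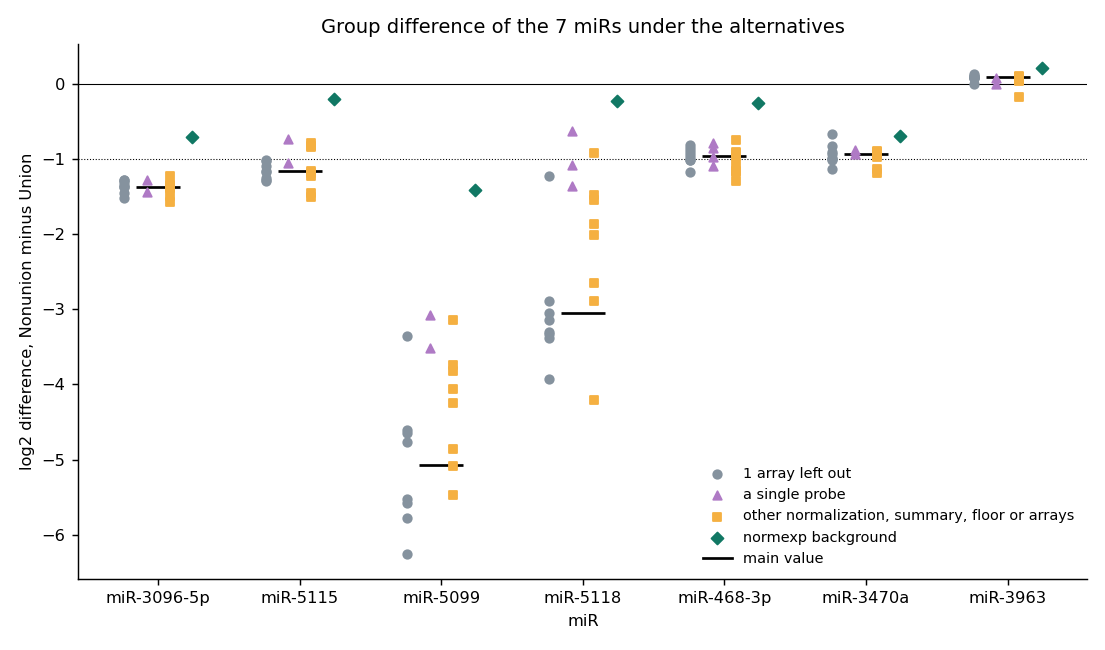
The log2 difference, Nonunion minus Union, is plotted for the 7 miRs in the main values and under the alternatives, which were other normalizations or summaries, single probes, arrays left out and the normexp background. The differences of miR-3096-5p and miR-3470a spread over less than 1 log2 unit, those of miR-5099 and miR-5118 over more than 3, and with normexp the differences of the 6 lower miRs are smaller than in the main values.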

How the data were processed

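Callus RNA of 4 Nonunion and 4 Union mice, grouped by the sample labels, was hybridized to the 8 arrays of 1 slide. Per the file headers, the authors used Agilent Feature Extraction 10.10.1.1, and they deposited its background-corrected intensity values per spot and probe, with detection calls and a merged signal per miR that is 0.1 where the miR was not detected. The authors also deposited a table of quantile-normalized log2 values, used here as an alternative. Coordinates are those of the RefSeq table, not of the array design, whose build differs.

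After log2 and quantile normalization over the 1079 murine miRs, the 310 detected on all arrays were fitted with limma 3.58.1 in R 4.3.3 (lmFit and eBayes, two-sided, Benjamini-Hochberg adjustment). Raising 2 to the log2 difference gives the FC. Precision is limited by the number of arrays. The members, lists and tests were chosen with earlier results of these data known. The miRs named follow a rule (members, detected miRs of the number lists, the 3 miRs with the highest Pearson r, miRs beside an FC of 2), to which the tissue lists and the entries with shared sequence (miR-3470b, miR-1958, miR-1191) were added. MiR-145-5p, the other miRs that were lower without overlap and the miRs like a member without normalization were picked with their values in view. The probes held in a merged signal were found by comparing it with all sums of probe signals. Hairpins were folded with RNAfold 2.7.2, Python 3.11.15 with pandas 2.3.3 and matplotlib 3.10.9 did the rest, and the fit was tested on simulated data. The alternatives were other normalizations, spot averages, normexp with an offset of 50, a floor of 1, other filters, the t-test of unequal variances, single probes and arrays left out. Sums of all probes, the share of miR-3963 and the removal of P14 and P19 were added after the values were seen. The qrt-PCR data were not analysed here.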

Additional observations from a re-analysis of the deposited data

Results flagged for a closer look

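In 3 of the 15 sets of 4 arrays that gave a range, the array farthest from the others lay beyond Dixon's 95% critical value for 4 samples. Chance gives about 1 in 20 where sets are not chosen on their values. The members were chosen on these same values, so that the number of sets cannot be set against that rate. For miR-5099 the array was P20 in the Union group, with a gap to the nearest array of 0.915 of the whole range of the group. In the Nonunion group it was P16, with 0.891, where miR-5099 was not detected and stood at the floor. For miR-3963 it was P17, with a gap equal to the whole range, or 1, since the normalization gave the other 3 Union arrays the same value.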

How the results depend on the processing

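The members were chosen on these same arrays, so that the direction of a difference under an alternative is no separate support. The differences of miR-3096-5p, miR-468-3p, miR-5115, miR-3470a, miR-5099 and miR-5118 were below 0 under all 17 alternatives and for each single probe. They ranged from -1.57 to -0.70, from -1.30 to -0.25, from -1.50 to -0.20, from -1.19 to -0.67, from -6.26 to -1.42 and from -4.21 to -0.22, and the values nearest to 0 came from normexp except in miR-3470a, where it came without P16. The difference of miR-3963 was 0.09 and turned to -0.17 without normalization. The number of members lower by an FC of 2 or more was 4, 1 with normexp and its offset, 2 in the value table of the authors, and 4 to 6 with 1 array left out. The number of members whose groups did not overlap was 4, 3 without normalization, 3 with normexp, 5 without P14 and P19, and 4 to 5 with 1 array left out. In the main values, 1.29% of the 310 miRs were lower by an FC of 2 or more and 2.58% were lower without overlap. These shares were not taken under the alternatives, and nothing is read from the counts of members. The count by FC includes miR-5099 and miR-5118, which were not detected on P16. Of the 310 miRs, 43 had an unadjusted p under 0.05. This number was 23 by the t-test of unequal variances. With arrays left out, the miRs detected on all remaining arrays were fitted, so that these counts are not out of the same 310. The number was then 122 without P14 and P19. Leaving out 1 array gave 18 to 115, with 20 without P15, 28 without P16, 18 without P17, 21 without P18 and 115 without P19. In the number lists, the count of 2 was 1 with detection required in 1 group only, 1 with no filter, 1 by the t-test of unequal variances, 7 without P14 and P19, and 0 to 5 with 1 array left out: 4 without P14, 5 without P19, 3 without P20 and 0 without any of the others. The cause of these changes was not tested, and P14 and P19 were removed because they lay near the other group. No paired analysis was possible because the groups share no specimen numbers. An undetected signal is a floor and not a measurement, which limits miR-5099 and miR-5118, and the dim probes of miR-5115, miR-5118 and miR-468-3p lay near the background on several arrays.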
